A study of Mus musculus with 2 samples.

Results

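The genes described here are 7 sialic acid binding lectins of the mouse, Siglec1, Cd22, Cd33, Siglece, Siglecf, Siglecg and Siglech, together with Sirpa and Cd47. They were given as a list of gene symbols, and all 9 were found among the 49585 gene identifiers of the count table. Messenger RNA was sequenced from CD11b+ cells that magnetic beads had pulled from subcutaneous tumours, which were grown from mouse pancreatic cancer cell lines of unstated name. Both groups were NRP2f/fCSF1R-iCRE mice on a BL6 background, in which Nrp2 is flanked by loxP sites and Cre, made from the Csf1r promoter of monocytes and macrophages, works only after induction. The knockout group received tamoxifen by daily injection once tumours were palpable. The control group has no tamoxifen named in its labels, so drug exposure and deletion cannot be told apart. Tumours were taken at 15 days, and the RNA of 3 animals was pooled into 1 library per group. Mouse age and sex are not used here.

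Siglecs are membrane lectins of leukocytes that bind sialic acid, the sugar that caps most chains on the surface of mammalian cells. Many carry tyrosine motifs in the cytoplasmic tail that recruit the phosphatases SHP-1 and SHP-2, so that a sialylated target dampens the cell that touches it. SIRPA works in the same way, but its ligand is the protein CD47, which healthy cells display and which restrains their engulfment by macrophages. In tumours these receptors are studied as brakes on phagocytosis by myeloid cells.

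The knockout library held 68554172 counted reads and the control library 64153676. Since each group is a single pooled library, no difference below is checked against replicates and no test was run. Genes with reads in 1 library only, and more than 4 of them, had a median of 24 reads in the knockout library and 47 in the control library, so a captured fragment was taken as worth that many reads. Each ratio, knockout over control, is followed by its 95% interval (exact, Clopper-Pearson, on counts divided by these values), which covers counting error only. A fold written as lower is the inverse of the ratio, with its interval inverted. Where no read was seen, up to 3 fragments remain possible, a floor equal to 72 reads for the knockout library and 141 for the control library. As a check of the label, Nrp2 had 1017 reads in the knockout library and 9686 in the control library, 9.71-fold lower (6.95 to 13.9). Itgam, which encodes CD11b, was at 422 CPM (counts scaled to library size) in the knockout library and 294 CPM in the control library. In bulk RNA of this kind, fewer cells of a type and less RNA per cell cannot be told apart.

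Of the 9 genes, 1 was higher by 2-fold or more in the knockout library and 2 were lower by as much. Over all 14420 genes with at least 50 reads the corresponding shares were 10.8% and 14.7%. Cd33 was the higher gene, and Siglece and Siglecf were the lower ones. Among the 9054 genes with at least 1000 reads, which include 8 of the 9, the shares were 4.5% higher and 4.02% lower. The counting interval left out 1 for 4 genes that were higher, Cd33, Cd22, Siglec1 and Cd47, and for the 2 lower genes, against 12.6% and 11.1% of all genes. It included 1 for Sirpa, Siglecg and Siglech. The interval lay wholly past 2-fold for Cd33, as for 0.853% of all genes in that direction, and for 0 of the 9 genes in the lower direction, where 1.03% of all genes did so.

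**Figure D1:**
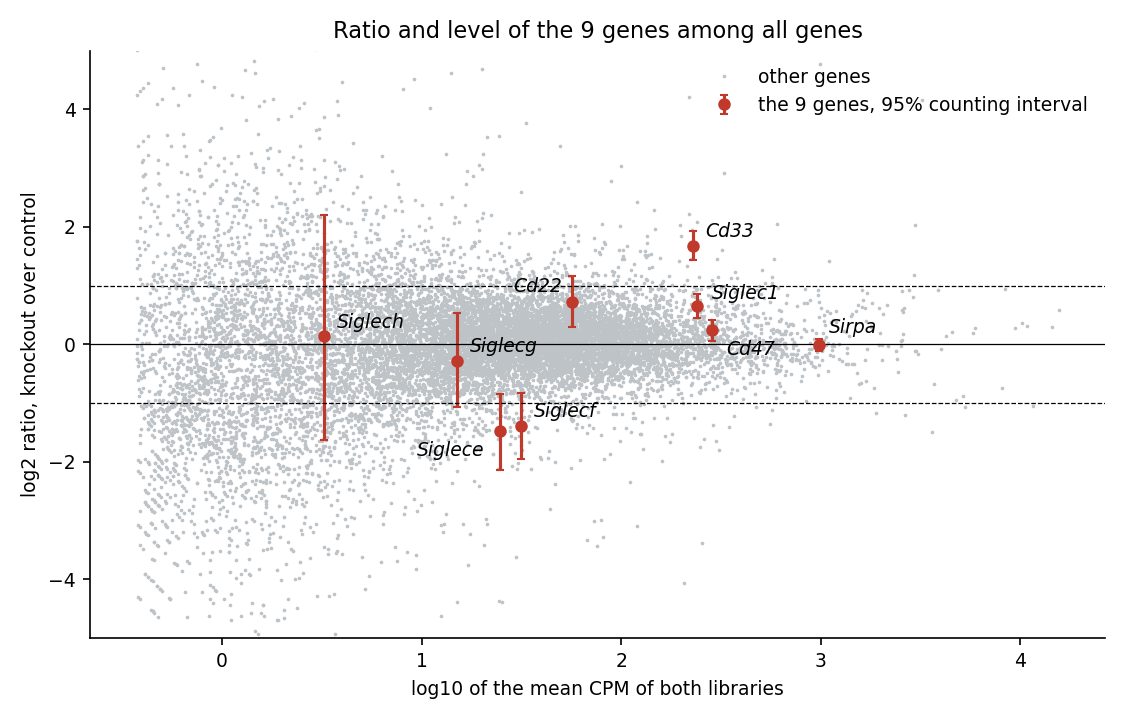
Log2 ratio of knockout over control (vertical axis) against the log10 of the mean CPM of both libraries (horizontal axis) for genes with at least 50 reads, with the 9 genes in red, their 95% counting intervals as bars and dashed lines at 2-fold. Cd33 sits above the upper line at 3.21-fold, Siglece and Siglecf below the lower line with intervals that cross it, and 883 other genes lie outside the vertical range.

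The receptor and ligand of the CD47 axis differed little between the libraries. Sirpa (ENSMUSG00000037902, GRCm38 chr2:129592835-129632228, plus strand), the myeloid receptor, had 64941 reads in the knockout library and 64221 in the control library. These are 969 and 978 CPM, a ratio of 0.991 (0.928 to 1.06) that turned to a log2 ratio of 0.0014 under median-of-ratios scaling. Cd47 (ENSMUSG00000055447, chr16:49800533-49915010, plus strand), its ligand, had 20596 reads in the knockout library and 17107 in the control library. It was at 307 CPM in the knockout library and 261 CPM in the control library, 1.18-fold higher (1.04 to 1.34). Within each library, Cd47 had 0.317 reads per read of Sirpa in the knockout library and 0.266 in the control library, a comparison free of library scaling.

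The other molecules that meet this axis were less even. Thbs1, which encodes thrombospondin 1, a secreted protein that also binds CD47, was at 4759 CPM in the knockout library and 1161 CPM in the control library, 4.1-fold higher (3.89 to 4.32). Lrp1, an endocytic receptor that takes up targets marked by calreticulin, was 2.66-fold higher (2.47 to 2.87). Calr, calreticulin itself, was at 796 CPM in the knockout library and 989 CPM in the control library, 1.24-fold lower (1.16 to 1.33). B2m, the light chain of MHC class I and another brake on engulfment through LILRB receptors, had a ratio of 0.95 (0.92 to 0.981). Cd200, which encodes a ligand of another inhibitory myeloid receptor, had 197 and 624 reads in the knockout and control libraries and was 3.23-fold lower (1.26 to 8.87). Of 11 measured ligands and pro-clearance partners 2 were higher by 2-fold or more and 2 lower, with a median log2 ratio of 0.54, where the median of all genes was -0.01. The fourth gene past 2-fold was Spn, which encodes the heavily sialylated CD43, a ligand of SIGLEC1, at 14 CPM in the knockout library and 31.4 CPM in the control library. Cd24a, whose product is bound by Siglec-G, was at 365 CPM in the knockout library and 246 CPM in the control library, a ratio of 1.48 (1.31 to 1.68). Spn and Cd24a were named after their values were seen. Sftpd, a lung collectin that binds SIRPA, was at 0 in both libraries.

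Among 13 other inhibitory or paired receptors 1 was higher by 2-fold or more and 1 lower, with a median log2 ratio of -0.19. Pecam1, a homophilic adhesion molecule with inhibitory motifs that is abundant on endothelium and leukocytes, was 3.79-fold lower (2.62 to 5.54). Ceacam1, an inhibitory adhesion molecule, was 2.09-fold higher (1.12 to 4.21). Cd300a, an inhibitory receptor for lipids of dying cells, was 1.94-fold lower (1.66 to 2.26). Pirb, an inhibitory receptor for MHC class I, had a ratio of 0.951 (0.857 to 1.06), and those of Clec12a and Lair1 were 1.07 and 0.878. Cd274, which encodes PD-L1, was 1.2-fold higher (1.1 to 1.32). Lilrb4a, also on the list, was not matched in the count table.

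Siglec1 (ENSMUSG00000027322, chr2:131069220-131086765, minus strand) encodes sialoadhesin or CD169, a long adhesion lectin of tissue macrophages that lacks the inhibitory motif. It had 19688 reads in the knockout library and 12242 in the control library. At 294 CPM in the knockout library and 186 CPM in the control library, it was 1.58-fold higher (1.37 to 1.82). Markers of CD169-bearing and resident macrophages went both ways beside it, with 2 of 10 higher by 2-fold or more, 3 lower and a median log2 ratio of -0.02. Their summed level was 4054 CPM in the knockout library and 3027 CPM in the control library, and no marker was at 0. Mrc1, the mannose receptor, was 1.64-fold higher (1.55 to 1.72), Vcam1, an adhesion molecule, 1.82-fold higher (1.63 to 2.04), and Hmox1, haem oxygenase 1, had a ratio of 0.938. The 2 higher markers were Marco, 2.77-fold (1.82 to 4.4), and Lyve1, 2.24-fold (1.69 to 3.0). The 3 lower were Timd4, 2.74-fold (1.52 to 5.02), Nr1h3, 2.23-fold (1.46 to 3.41), and Cd5l, whose interval includes 1. These markers past 2-fold were named after their values were seen. General macrophage markers summed to 31970 CPM in the knockout library and 25810 CPM in the control library, with Apoe 1.51-fold higher and C1qa and C1qb at ratios of 0.923 and 0.893. Of these 10 markers 1 was higher by 2-fold or more and 0 lower, at a median log2 ratio of -0.03. The part of these cells in the Siglec1 ratio was not tested.

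The CD33-related siglecs are a fast-evolving group of inhibitory receptors, and 4 of the genes described here lie within 308.8 kilobases of chromosome 7, from Siglecf to Siglece. Cd33 (ENSMUSG00000004609, chr7:43524216-43544428, minus strand) encodes a myeloid siglec whose cytoplasmic tail in the mouse differs from that of the human protein. It had 23425 reads in the knockout library and 7159 in the control library. This is 350 CPM in the knockout library and 109 CPM in the control library, 3.21-fold higher (2.7 to 3.83). Siglece (ENSMUSG00000030474, chr7:43651070-43660161, minus strand) encodes Siglec-E, an inhibitory siglec of mouse neutrophils, monocytes and macrophages. It had 871 reads in the knockout library and 2389 in the control library. At 13 CPM in the knockout library and 36.4 CPM in the control library, it was 2.8-fold lower (1.79 to 4.41). Siglecf (ENSMUSG00000039013, chr7:43351341-43359531, plus strand) encodes Siglec-F, a receptor of eosinophils and alveolar macrophages. It had 1168 reads in the knockout library and 2994 in the control library, or 17.4 CPM and 45.6 CPM, and was 2.61-fold lower (1.77 to 3.88). Siglecg (ENSMUSG00000030468, chr7:43408204-43418358, plus strand) encodes Siglec-G, an inhibitory receptor of B cells and some dendritic cells. Its 911 reads in the knockout library and 1084 in the control library gave a ratio of 0.824 (0.478 to 1.45).

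How far these genes diverged within the cluster can be read without any scaling of the libraries. The direction of each gene cannot, and rests on the scaled ratios above. Cd33 had 26.9 reads per read of Siglece in the knockout library and 3.0 in the control library, an 8.97-fold difference. Against Siglecf, Cd33 had 20.1 reads per read in the knockout library and 2.39 in the control library, an 8.39-fold difference. The ratio of Siglece to Siglecf was 0.746 in the knockout library and 0.798 in the control library, close as point values. They rest on about 36.3 and 48.7 fragments in the knockout library and 50.8 and 63.7 in the control library. No interval was computed for ratios within a library. Of 23 annotated genes from Siglecf to Siglece, 11 had at least 50 reads, among which 2 were higher by 2-fold or more and 5 lower. Over all genes with at least 50 reads the shares were 10.8% and 14.7%. The stretch was bounded by Siglecf and Siglece, and its counts include both of them and Cd33. Cd33 and the zinc finger gene Zfp719, with 455 and 151 reads in the knockout and control libraries and an interval of 0.896 to 14.5, were the higher ones. The lower ones were Siglecf, Siglece, Nkg7 and a pair read thinly, Zfp819 and Gm2511. Nkg7, a cytotoxic granule gene of lymphocytes, was 3.85-fold lower (2.03 to 7.62). Zfp819 had 17 and 59 reads and Gm2511 52 and 110 reads in the knockout and control libraries, with intervals that include 1.

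**Figure D2:**
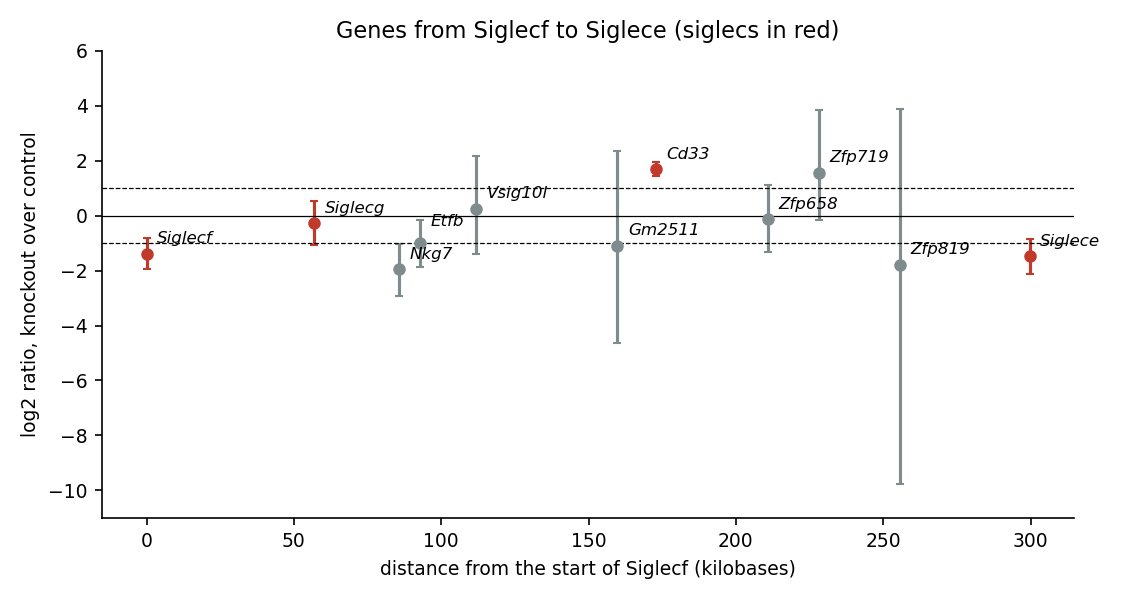
Log2 ratio of knockout over control (vertical axis) by distance in kilobases from the start of Siglecf (horizontal axis) for the 11 genes with at least 50 reads between Siglecf and Siglece, siglecs in red, with 95% counting intervals and dashed lines at 2-fold. Cd33, 172.9 kilobases along, stands above 2-fold, while Siglecf at the left edge and Siglece at the right edge stand below it with overlapping intervals.

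The 250 bases before the annotated start of Cd33, Siglece and Siglecf are shown because these 3 neighbours are the genes past 2-fold and differ in direction. They are RefSeq promoters on GRCm38.p6, written 5′ to 3′ on the strand of the gene, and capitals mark the 6 letters GAGGAA or their reverse complement TTCCTC, a core bound by the myeloid factor PU.1 and other ETS proteins. The Cd33 window is chr7:43533172-43533421 on the minus strand and precedes the RefSeq start, while the gene annotation above extends further upstream. The Siglece window is chr7:43660162-43660411 on the minus strand and the Siglecf window chr7:43351091-43351340 on the plus strand.
Cd33: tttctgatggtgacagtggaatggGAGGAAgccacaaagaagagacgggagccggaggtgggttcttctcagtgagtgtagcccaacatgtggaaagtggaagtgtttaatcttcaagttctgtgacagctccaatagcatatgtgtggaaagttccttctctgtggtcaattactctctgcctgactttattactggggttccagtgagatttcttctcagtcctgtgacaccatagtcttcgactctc
Siglece: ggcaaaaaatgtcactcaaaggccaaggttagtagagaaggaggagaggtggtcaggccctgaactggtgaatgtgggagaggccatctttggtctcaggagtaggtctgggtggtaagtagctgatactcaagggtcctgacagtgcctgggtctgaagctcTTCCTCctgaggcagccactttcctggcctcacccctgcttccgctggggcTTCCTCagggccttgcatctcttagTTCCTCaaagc
Siglecf: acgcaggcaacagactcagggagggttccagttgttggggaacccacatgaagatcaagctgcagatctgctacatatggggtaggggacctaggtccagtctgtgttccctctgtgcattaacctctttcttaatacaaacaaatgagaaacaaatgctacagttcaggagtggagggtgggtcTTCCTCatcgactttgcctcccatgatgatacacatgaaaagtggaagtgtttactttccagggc
The motif occurred once in the Cd33 window, its first base at position -226 from the start, and once in the Siglecf window at -65. It occurred 3 times in the Siglece window, at -87, -36 and -11. Of 32851 promoters of the same length 23.3% hold it on either strand. Of 2 RefSeq entries for the Siglecg promoter, the one that lies further upstream held it at -241 and -212 and the other did not. The promoters of Cd22, Cd47 and Siglech did not hold it. Other letters were searched on both strands. They were AGATAA, bound by GATA factors and held by 9.99% of promoters, TGANTCA of AP-1 (6.75%), TTGCNNAA of C/EBP factors (9.56%), TTCNNNGAA of STAT factors (7.02%) and TATAAA of the TATA box (12.4%). Of the 7 genes with a promoter entry, 1 held any of these, Siglech. There C/EBP letters lay at -169 and STAT letters at -123. These matches are descriptions of the windows. Siglec1 and Sirpa had no entry.

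Cell type markers beside these 3 genes moved as follows. Eosinophil markers summed to 80.8 CPM in the knockout library and 224 CPM in the control library, 2.77-fold lower, most of it from reads of Alox15 and Ccr3. Of the 6 measured, 3 were lower by 2-fold or more and 1 higher, with a median log2 ratio of -0.95. Alox15, a lipoxygenase also made by some macrophages, was 3.88-fold lower (3.01 to 5.03), Ccr3, the eotaxin receptor, 3.54-fold lower (2.51 to 5.04), and Prg2, a granule protein, 2.01-fold lower with an interval that reaches 1. Epx, which encodes eosinophil peroxidase, was at 0 in both libraries. The higher marker was Ear6, an eosinophil-associated ribonuclease, with 1051 reads in the knockout library and 187 in the control library, 5.5-fold higher (2.0 to 21.2) and opposite to Siglecf. Neutrophil markers, set beside Siglece, summed to 1326 CPM in the knockout library and 1061 CPM in the control library. Of 9 measured, 3 were higher by 2-fold or more and 0 lower, at a median log2 ratio of 0.6, opposite to Siglece. S100a8 was 1.92-fold higher, S100a9 1.51-fold higher and Retnlg 1.24-fold lower. The 3 genes higher by 2-fold were Ngp, with 1033 and 2 reads in the knockout and control libraries, Ltf and Ly6g. Ltf was 3.16-fold higher (1.42 to 8.25). Ly6g had 96 reads in the knockout library and 0 in the control library, with an interval that includes 1. Csf3r, Cxcr2 and Mmp8 had ratios of 0.985, 0.985 and 0.911, with intervals that include 1. Monocyte markers summed to 547 CPM in the knockout library and 1149 CPM in the control library, with 4 of 8 lower by 2-fold or more and 2 higher and a median log2 ratio of -1.15. Ccr2 was 2.66-fold, Plac8 3.16-fold and Cx3cr1 8.58-fold lower, the same direction as Siglece. Ly6c2, a marker of classical monocytes, was 2.75-fold higher (2.14 to 3.56) and Vcan, a matrix proteoglycan, 2.21-fold higher (1.41 to 3.6), the same direction as Cd33. Ear6, Ly6c2, Vcan and the neutrophil genes other than S100a8, S100a9 and Retnlg were named after their values were seen. The part of eosinophils, neutrophils and monocytes in the ratios of the siglecs was not tested.

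Cd22 (ENSMUSG00000030577, chr7:30865402-30880342, minus strand) encodes an inhibitory co-receptor of the B cell receptor and lies outside the cluster on chromosome 7. It had 4711 reads in the knockout library and 2813 in the control library. At 70.3 CPM in the knockout library and 42.8 CPM in the control library, it was 1.64-fold higher (1.22 to 2.23). B cell markers stood the other way. Of 6 measured, 5 were lower by 2-fold or more and 0 higher, with a median log2 ratio of -1.66, and their sum was 10 CPM in the knockout library and 34.9 CPM in the control library. Cd79b, a signalling chain of the B cell receptor, was 6.43-fold lower (2.9 to 15.9), Bank1, a B cell scaffold protein, 2.19-fold lower (0.951 to 5.12), and Ms4a1, which encodes CD20, had 43 and 113 reads in the knockout and control libraries. Ms4a1, Cd79a, another chain of the receptor, and Pax5, a B cell transcription factor, are under the floor in both libraries, and among genes with at least 1000 reads the count past 2-fold was 1, Cd79b. Ebf1, a further B cell factor below the limit of 50 reads, had 42 reads in the knockout library and 0 in the control library. Cr2, a complement receptor of B cells, was at 0 in both. The part of B cells in the Cd22 ratio was not tested. Per read of Siglecg, the other siglec of B cells here, Cd22 had 5.17 reads in the knockout library and 2.59 in the control library. An annotated antisense gene, Gm29439, shares 479 of the 5042 exon bases of Cd22 and had 0 reads in both libraries.

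Siglech (ENSMUSG00000051504, chr7:55768178-55778925, plus strand) encodes Siglec-H, a receptor of plasmacytoid dendritic cells that signals through the adaptor DAP12. It had 228 reads in the knockout library and 203 in the control library, or 3.4 and 3.09 CPM. The ratio was 1.1 with an interval of 0.321 to 4.58, so a difference of 3-fold in either direction was not detectable at this depth. Plasmacytoid dendritic cell markers summed to 704 CPM in the knockout library and 665 CPM in the control library, carried by genes that other myeloid cells also express. Of 12 measured, 3 were higher by 2-fold or more and 1 lower, at a median log2 ratio of 0.09. Over all genes with at least 50 reads these shares were 10.8% and 14.7%. Among genes with at least 1000 reads the count past 2-fold was 1, Tlr7. The others were Klk1, with 127 and 27 reads in the knockout and control libraries, Cox6a2 with 88 and 0, and Ly6d with 75 and 185. Their intervals include 1, and they were named after their values were seen. Tlr7, a sensor of RNA, was 2.78-fold higher (2.28 to 3.42), Irf8, a transcription factor, 1.29-fold lower and Bst2, an interferon-inducible membrane protein, 1.35-fold lower. The 2 remaining mouse siglecs were also looked up. Mag, a siglec of myelin, had 897 reads in the knockout library and 1044 in the control library, at a ratio of 0.842 (0.485 to 1.49). Siglec15 had 7 reads in the knockout library and 0 in the control library, both under the floor.

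Summed over the 7 siglecs, the level was 761 CPM in the knockout library and 440 CPM in the control library, 1.73-fold higher (1.58 to 1.9). Without Cd33 the sum of the other 6 was 412 CPM in the knockout library and 331 CPM in the control library, 1.24-fold higher (1.12 to 1.39). Most of this sum was Siglec1, with 19688 of 27577 reads in the knockout library and 12242 of 21725 in the control library. Of the rest, Cd22 was higher, Siglece and Siglecf were lower, and the intervals of Siglecg and Siglech included 1. Cd33 made up 45.9% of siglec reads in the knockout library (43.8% to 48.1%) and 24.8% in the control library (21.4% to 28.4%), by exact Clopper-Pearson intervals on fragments. Siglecf took 2.29% of them in the knockout library and 10.4% in the control library. Siglece took 1.71% in the knockout library and 8.27% in the control library. The shares of Siglec1, 38.6% in the knockout library and 42.4% in the control library, had overlapping intervals, as did those of Cd22 and Siglech. Siglecg took 1.79% in the knockout library (1.27% to 2.44%) and 3.75% in the control library (2.4% to 5.58%), also with overlapping intervals.

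**Figure D3:**
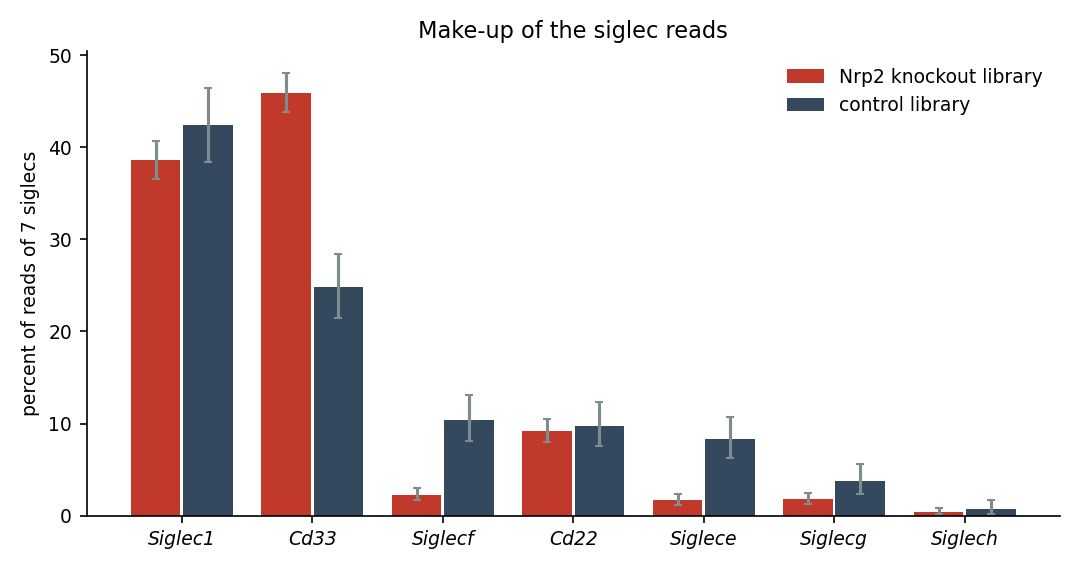
Percent of the reads of 7 siglecs (vertical axis) taken by each gene (horizontal axis) in the knockout library (red) and the control library (dark blue), with 95% exact intervals on fragments. Cd33 takes 45.9% in the knockout library against 24.8% in the control library, and the bars of Siglecf and Siglece are lower in the knockout library.

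Per kilobase of exon, which allows genes to be compared with each other, the order of levels differed between the libraries in the middle ranks. Sirpa led both, with 197 CPM per kilobase in the knockout library and 199 in the control library. In the knockout library Cd47 followed at 49, then Cd33 at 45, Siglec1 at 41.2, Cd22 at 13.9, Siglece at 7.03, Siglecf at 6.25, Siglecg at 2.83 and Siglech at 1.01 CPM per kilobase. The counting intervals overlapped between Cd47 and Cd33, between Cd33 and Siglec1, and between Siglece and Siglecf. In the control library Cd47 stood at 41.5, then Siglec1 at 26.1, Siglece at 19.7, Siglecf at 16.3, Cd33 at 14, Cd22 at 8.5, Siglecg at 3.43 and Siglech at 0.914 CPM per kilobase. There the intervals of Siglec1 and Siglece, of Siglece, Siglecf and Cd33 with each other, and of Siglecg and Siglech overlapped. By its point value Cd33 was the third of the 9 in the knockout library and the sixth in the control library, where its place relative to Siglece and Siglecf is not set beyond counting error. These lengths are the union of all annotated exons, so the order also depends on the annotation. They were 7771 bases for Cd33, 1849 for Siglece and 2790 for Siglecf. Transcripts of 1 gene, such as the 6 annotated for Cd33, are not told apart by gene counts.

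**Figure D4:**
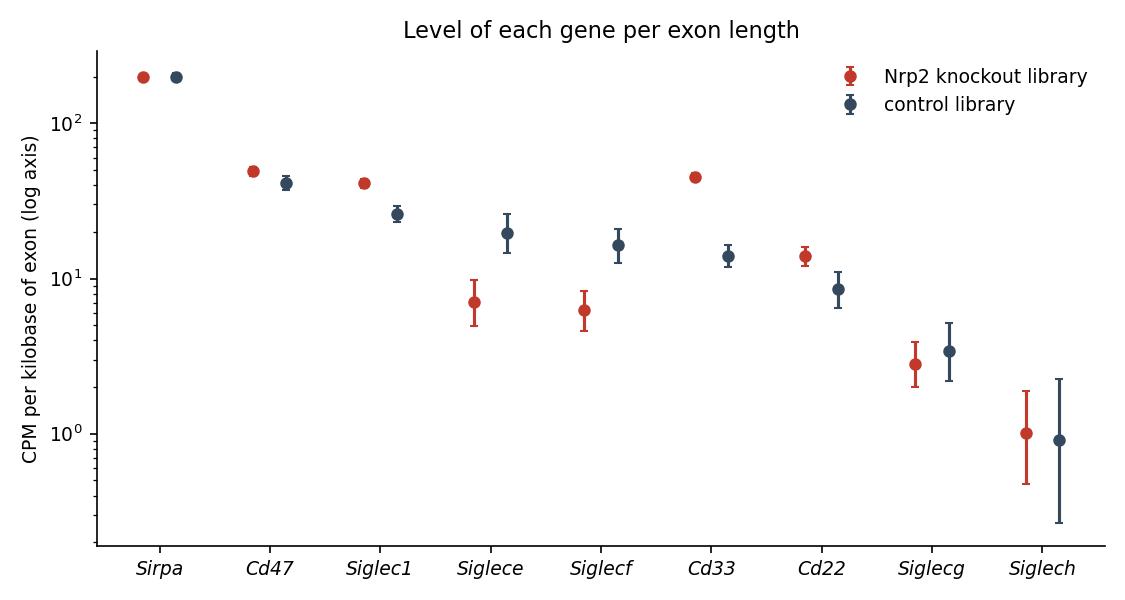
Level of each of the 9 genes in CPM per kilobase of exon (vertical log axis), ordered by the control library, in the knockout library (red) and the control library (dark blue), with 95% exact Poisson intervals on fragments. Sirpa is level at 197 and 199, Cd33 is higher in the knockout library, and Siglece and Siglecf are lower there.

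Downstream signalling genes of these receptors showed smaller differences. Of 14 adaptors, kinases and phosphatases, 0 were higher by 2-fold or more and 0 lower, and the median log2 ratio was -0.26. Ptpn6, which encodes SHP-1, was at 214 CPM in the knockout library and 363 CPM in the control library, 1.7-fold lower (1.5 to 1.91). Inpp5d, the lipid phosphatase SHIP-1, was 1.55-fold higher (1.37 to 1.76). Tyrobp, which encodes DAP12, had a ratio of 0.922 (0.865 to 0.983), and the kinase gene Syk one of 1.06 (0.952 to 1.18). Lyn, which encodes a Src family kinase that phosphorylates the inhibitory motifs, was 1.24-fold lower.

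A few genes for the enzymes that make siglec ligands lay past 2-fold, in both directions. Over all genes with at least 50 reads the shares were 10.8% higher and 14.7% lower. Of 12 measured sialyltransferases, which attach sialic acid to sugar chains, 1 was higher by 2-fold or more and 3 lower, with a median log2 ratio of -0.2. St3gal5, which makes the ganglioside GM3, had 1951 reads in the knockout library and 288 in the control library and was 6.63-fold higher (2.94 to 18.4). St3gal2 was 2.08-fold lower (1.18 to 3.67). The remaining lower ones were read thinly and had intervals that include 1. St8sia6 had 1 and 100 reads in the knockout and control libraries, both under the floor. St8sia1 had 69 reads in the knockout library, under the floor, and 186 in the control library. The better-read members lay closer to 1, with St6gal1, which makes the linkage that CD22 binds, at a ratio of 0.961 (0.769 to 1.21), St3gal1 at 1.31, St3gal4 at 0.785, St6galnac4 at 1.01 and St8sia4 at 0.696. Of 9 measured genes of sialic acid synthesis, transport and breakdown, 1 was higher by 2-fold or more and 1 lower, at a median log2 ratio of -0.01. Gne, the rate-limiting enzyme of sialic acid synthesis, had 1066 reads in the knockout library and 481 in the control library, 2.17-fold higher (1.08 to 4.79). Npl, which breaks sialic acid down, was 1.7-fold lower (1.42 to 2.03), and Slc35a1, which carries activated sialic acid into the Golgi, had a ratio of 1.4 (0.809 to 2.53). The lower gene was Cmah, which makes the glycolyl form of sialic acid that mouse CD22 prefers, with 18 reads in the knockout library, under the floor, and 288 in the control library, 15.9-fold lower (1.65 to 2134), named after its values were seen. The synthesis genes Nans and Cmas had ratios of 0.831 and 0.957, and Siae, an esterase of sialic acid, one of 0.993. Of 2 measured sialidases 0 were past 2-fold, at a median log2 ratio of 0.15. Neu1, the lysosomal sialidase, was 1.42-fold higher (1.19 to 1.69), Neu3 had 63 and 71 reads in the knockout and control libraries, and Neu2 and Neu4 were at 0 in both.

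**Figure D5:**
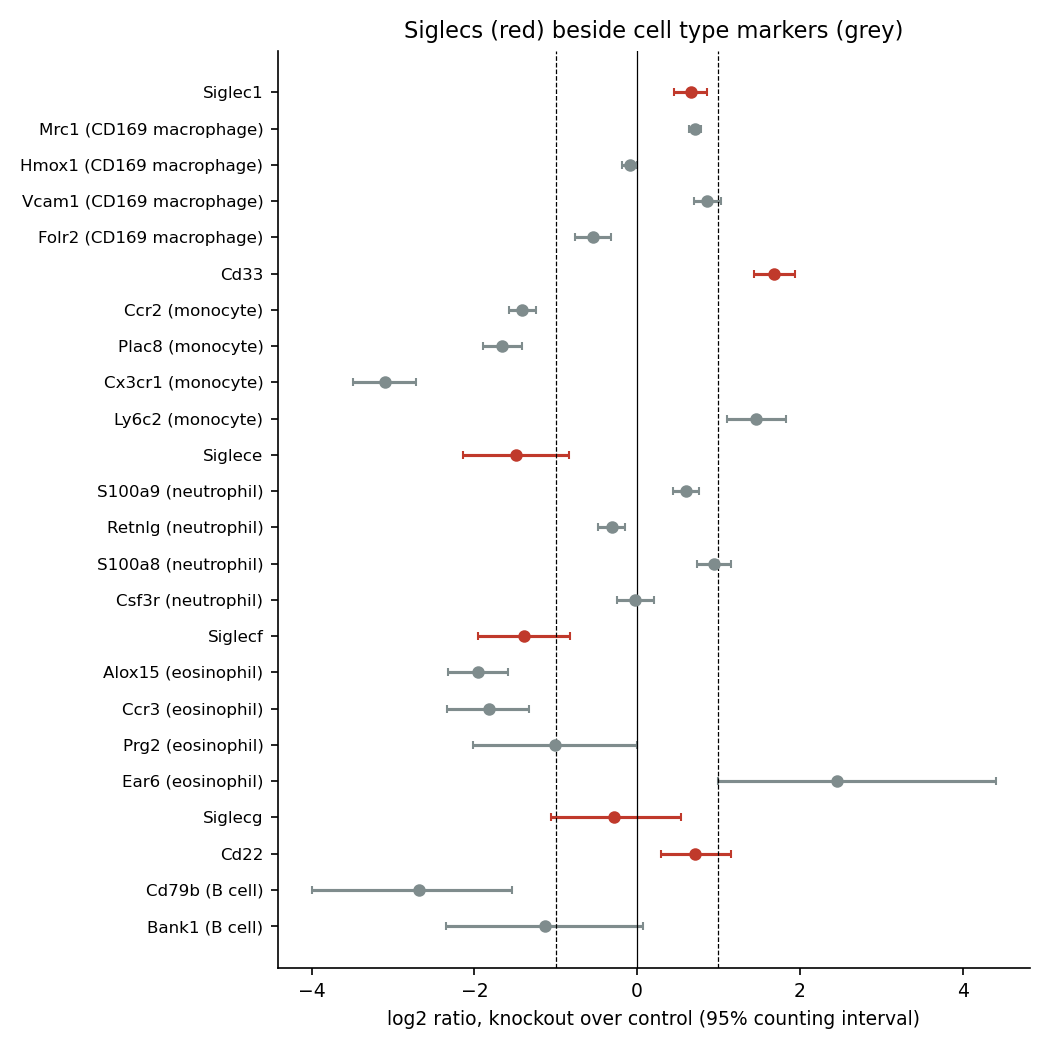
Log2 ratio of knockout over control (horizontal axis) for 6 siglecs in red and, under it in grey, up to 4 of the most-read markers of a cell type known to express it (B cell markers stand under Cd22 and serve for Siglecg too), with 95% counting intervals and dashed lines at 2-fold. Siglecf lies on the same side as Alox15, Ccr3 and Prg2 and opposite to Ear6, Cd33 on the same side as Ly6c2 and opposite to the other 3 monocyte genes, and Cd22 lies on the opposite side from Cd79b and Bank1.

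Of the remaining cell types that a bead selection could hold, markers of 3 were mostly lower in the knockout library. At least 2-fold lower were 5 of 7 plasma cell genes (median log2 ratio -3.23), 7 of 8 conventional dendritic cell genes (-1.45) and 8 of 10 T and NK cell genes (-1.58). Over all genes with at least 50 reads the share was 14.7%. Among those with at least 1000 reads the counts past 2-fold were 3, 6 and 5 in the same order. The most-read plasma cell genes, Xbp1 and Sdc1, had ratios of 1.01 and 1.11. Among the lower genes, Mzb1 and Xcr1 had intervals that include 1. Of 6 epithelial genes, 3 were lower by 2-fold or more and 0 higher (-0.89). Of 6 fibroblast genes 1 was lower (-0.73), Lum, at 68 and 140 reads in the knockout and control libraries, both under the floor, and upper-quartile and total-count scaling gave 2. Both erythroid genes with at least 50 reads were lower (-2.36), Hbb-bs with 31 reads in the knockout library and 183 in the control library and Hba-a1 with 16 and 71, with intervals that include 1. Below that limit Hbb-bt and Hba-a2 had 26 and 23 reads in the knockout library and 0 in the control library. Of 5 measured basophil and mast cell genes, 3 were higher by 2-fold or more and 1 lower (1.25), on summed levels of 11.6 CPM in the knockout library and 4.57 CPM in the control library. All 5 were under the floor in the control library, and all but Tpsab1 had intervals that include 1. Among basophil and mast cell genes with at least 1000 reads the count past 2-fold was 0. The part of these cells in the ratios of the 9 genes was not tested.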

How the data were processed

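Raw counts, whole numbers for each Ensembl gene, were deposited by the authors without normalisation. The submitters' processing notes name cutadapt, HISAT2, featureCounts and GRCm38, with no versions, and per the file headers the columns hold read 1. The authors also deposited a table with normalised values (a signal, the counts divided by a constant per library), a log2 fold change with its standard error, a score (the fold change over its error) and p-values, raw and adjusted. No source used here names the tool that made it. In the authors' deposited table the log2 fold change of Cd33 was 1.70 with a standard error of 0.63 and an adjusted p-value of 0.842, and the adjusted p-values of the other 8 genes were 1.0.

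Library sizes were scaled by TMM (edgeR 4.0.16, R 4.3.3), with factors of 0.977 for the knockout and 1.02 for the control library. Log2 ratios used a prior of 0.5 counts. Folds were called at 2-fold without a test, among genes whose reads in the 2 libraries sum to 50 or more. Symbols, exon lengths and coordinates came from GENCODE M21 (GRCm38) for 49326 identifiers and promoters from RefSeq. The calculation was tested on simulated data. The genes and lists were chosen with earlier results of these data known. Of each list of partner genes the text names the 4 most read and the 3 with the largest ratio among those with at least 500 reads, and of each cell type list drawn on for a siglec the 3 most read and those at 0. Names outside this rule were added after values were seen. A gene that this rule names among the signalling genes is not reported here. Duplicates made by PCR count as reads, as no molecular identifiers are named, and a use of strand in counting is not stated. Of the 50-base stretches of the 9 genes' transcripts, 0% to 4.48% also occur in transcripts of other genes, the most for Siglecg.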

Additional observations from a re-analysis of the deposited data

How the results depend on the processing

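Under median-of-ratios, upper-quartile and total-count scaling, a prior of 5 counts and the authors' deposited table, the log2 ratios of the 9 genes shifted by -0.07 to 0.01 and stayed within their counting intervals. The sign of Sirpa turned under median-of-ratios scaling and in the authors' deposited table (0.0014 in both), where its interval includes 1. The count of 3 genes past 2-fold was the same under each scaling, each prior and each limit on reads. It was 1 when the fragment interval had to lie wholly past 2-fold, and 3 when the interval on undivided reads had to, an alternative chosen after seeing the data. On undivided reads the interval of Siglecg (log2 ratio -0.28) no longer included 1, at -0.41 to -0.15. Of 126 recounts of genes past 2-fold in the lists, 14 moved by more than 1.5 times. Depth limits Siglech, which rests on about 9.5 fragments in the knockout library and 4.32 in the control library. No library could be left out, since each group has 1. No paired analysis was possible because each group has 1 library and no value comes from a test.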
